A study of Mus musculus with 15 samples.

Results

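Cultured mouse cortical neurons were compared between 15 h and 24 h with kainate, the last interval of a time course of kainate-induced neuronal death, to ask which transcripts still changed over that interval. Its 6 arrays are those titled as kainate for 24 h and kainate for 15 h, 3 of each, taken from 15 arrays in all and paired by the beadchip they lay on. Of 24606 targets on the array, 14154 were tested.

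The neurons came from the foetal neocortex of Swiss albino mice at gestation day 15 to 16 and had been in culture for 5 days. All 3 kainate groups, at 5 h, 15 h and 24 h, received 100 µM kainate and hold 3 arrays each. The 6 control arrays carried vehicle-treated neurons. Each of the 3 beadchips held 1 array at every kainate time and 2 controls, and all 24 h arrays lay at one position of the chip and all 15 h arrays at another, so position and time cannot be told apart. Hours with kainate and any added hours in culture cannot be told apart either.

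Kainate is a glutamate analogue that opens the kainate and AMPA types of ionotropic glutamate receptor. Prolonged opening depolarises neurons and lets sodium and calcium in, which drives activity-regulated transcription, then stress programmes and, in sensitive cells, death by excitotoxicity. Primary cortical cultures also hold glia and progenitors, which can respond to the injury of the neurons around them. Because RNA was taken from whole cultures, fewer cells of a type and less RNA per cell cannot be told apart in any value below.

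Values are log2 signals after background correction and quantile normalization across the arrays, and a difference of 1 on this scale is a doubling. The array measures each target as the mean brightness of its beads. A gene is said to have risen or fallen only where limma's moderated test, adjusted by the Benjamini-Hochberg method over all 14154 probes, gave p below 0.05. A probe counts as detected on an array where its deposited detection p was below 0.05. Nothing in the labels says that replicates came from different cultures, and a p-value here therefore reflects array-to-array spread, which may be technical. The percentage of targets detected was 51.3% to 55.2% at 15 h and 51.0% to 52.5% at 24 h.

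One array stood apart before any gene was considered. Across the tested probes, 24 h replicate 3 correlated at 0.9862 and 0.9857 with 24 h replicates 1 and 2, which correlated at 0.9944 with each other. Its correlations with the 15 h arrays were 0.9899 to 0.9906, higher than with its own group. The change from 15 h to 24 h correlated at 0.558 across probes between beadchips 1 and 2, but at -0.008 between beadchips 1 and 3 and at 0.023 between beadchips 2 and 3. These correlations describe 14154 probes that share arrays and are not independent replicates. The size of the change was similar on the 3 beadchips, with standard deviations across probes of 0.303, 0.312 and 0.311. Counts of calls and the values of called genes are therefore given with and without 24 h replicate 3.

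**Figure D1:**
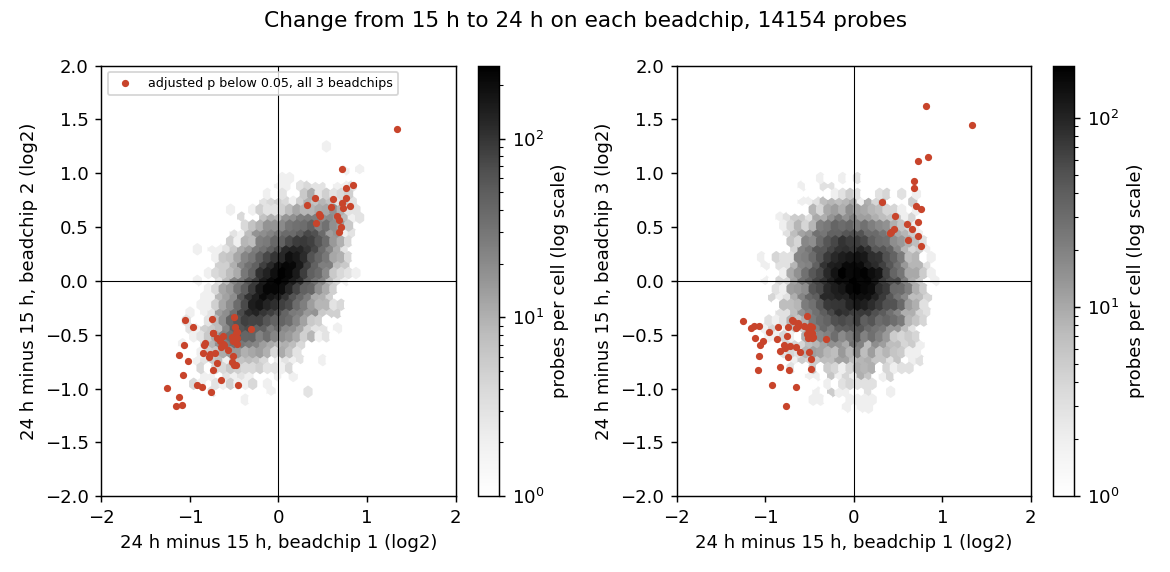
Change from 15 h to 24 h (log2) of 14154 probes on beadchip 2 (left) and beadchip 3 (right), each against beadchip 1, with darker cells holding more probes and red points marking the 65 probes that passed the test over all 3 beadchips. The cloud is tilted in the left panel, where r was 0.558, and round in the right panel, where r was -0.008.

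Markers of the labelled cells were present, and 13 of 15 excitatory cortical neuron markers on the array were detected on all 6 arrays. Astrocyte markers were also present, with 14 of 16 detected on all 6 arrays and S100b and Slc1a2 on none. The oligodendrocyte lineage had 10 of 13 and the neural progenitors 13 of 15 detected on all 6. Of 14 microglia and macrophage markers, 6 were detected on all 6 arrays and Cd14, Fcer1g, Itgam, P2ry12 and Ptprc on none. The summed signal of the excitatory markers was 12655.2 to 13163.9 at 15 h, 13811.2 and 14160.8 in 24 h replicates 1 and 2, and 11516.6 in 24 h replicate 3. The summed microglia and macrophage signal was 1159.1 to 1183.1 at 15 h, 899.5 and 945.7 in 24 h replicates 1 and 2, and 1503.3 in replicate 3. Laptm5 and Lgals3 had mean log2 signals of 8.87 and 8.40 at 15 h and the next brightest, C1qc, 5.71. Laptm5 and Lgals3 therefore made up most of that 15 h sum. Of 13 endothelial and mural markers, 3 were detected on all 6 arrays and Abcc9, Flt1, Kcnj8, Kdr and Tek on none. Their sum was likewise highest in 24 h replicate 3, at 1713.5 against 1068.7 and 1031.9 in replicates 1 and 2. At 15 h it was 1113.1 to 1249.5. Acta2 had a mean log2 signal of 9.71 at 15 h and the next brightest, Pdgfrb, 6.27, so Acta2 made up most of the 15 h sum. The part of these marker levels in the results below was not tested.

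**Figure D2:**
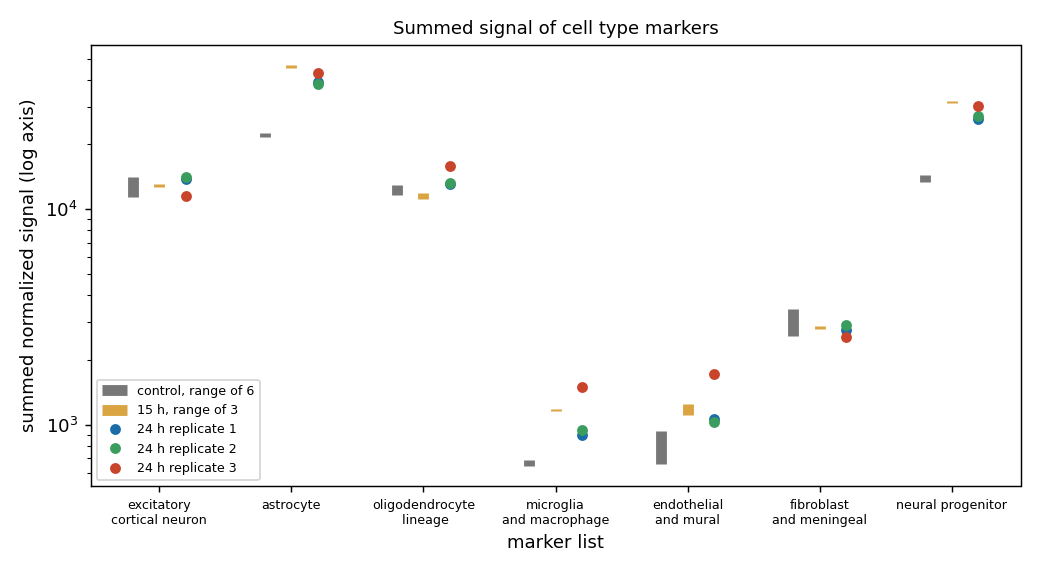
Summed normalized signal (log axis) of the markers of 7 cell types in the controls (grey, range of 6 arrays), at 15 h (ochre, range of 3 arrays) and on each 24 h array (points). In 24 h replicate 3 the microglia and macrophage sum (1503.3) and the endothelial and mural sum (1713.5) lay above the other 24 h arrays and the 15 h range. The excitatory neuron sum (11516.6) lay below them.

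Over all 15 arrays with beadchip as a block, 65 of 14154 probes (0.459%) passed the test between 15 h and 24 h. Of these, 19 (0.134%) were higher at 24 h and 46 (0.325%) were lower, and 43 (0.304%) differed by 1.5-fold or more. They covered 61 named genes. For scale, 40.1% of the same probes passed against the controls at 5 h, 46.3% at 15 h and 44.0% at 24 h. The 2 groups of 3 arrays did not overlap for 2879 probes (20.3%). Without 24 h replicate 3, 1376 probes (9.72%) passed, 645 higher and 731 lower, with 397 (2.8%) at 1.5-fold or more, and all 65 were among them with the same sign.

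These calls rest on the spread pooled over all groups and on all 6 arrays. A fit to the 6 arrays alone called 0 probes by limma, with 1766 at an unadjusted p below 0.05. Leaving out one of the other 5 arrays brought the count to between 2 and 11. Of the 36 called genes named below, all passed without 24 h replicate 3, as did every call, so that result sets none of them apart. Without 15 h replicate 1, 2 or 3, respectively 2, 5 and 6 of the 36 passed. Without 24 h replicate 1 or 2, respectively 8 and 5 passed. Only Mid1 and Atoh7 passed in every fit that left out 1 kainate array. All 36 kept their sign in each such fit, but they were named for having the same sign on each beadchip. The kept signs are therefore no further support. Leaving out control replicates 1 and 3, which stand apart from the other controls, gave 271 called probes. Before normalization, the median signals were 67.8, 54.9 and 70.1 on the 15 h arrays and 53.4, 57.0 and 56.5 on the 24 h arrays. The rises below are therefore relative to the other targets of each array. With the median of all targets centred instead, 9 probes were higher and 274 lower, and 27 of the 36 genes stayed past the threshold.

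The largest fitted rise was in Mid1, a microtubule-associated ubiquitin ligase. Its log2 signal was 4.89, 4.77 and 4.63 in 15 h replicates 1 to 3 and 6.22, 6.18 and 6.08 at 24 h. The 24 h arrays were all above the 15 h arrays, and the controls (4.55 to 5.12, median 4.58) and the 5 h mean of 4.81 were at the 15 h level. The difference was 1.40 ± 0.15 (SE, n = 3 against 3), 2.64-fold, with an adjusted p of 0.00142, and 1.51 ± 0.16 without 24 h replicate 3. The Mid1 probe was detected on 1 of 3 arrays at 15 h and on 3 of 3 at 24 h, so its 15 h level is close to the background and its fold is uncertain.

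Gpr17 and Bcas1 were among the other rises. Gpr17, a receptor of differentiating oligodendrocyte precursors, read 7.10, 7.10 and 7.24 at 15 h and 7.94, 7.99 and 8.39 at 24 h, a rise of 0.96 ± 0.12 (adjusted p = 0.00606). At 5 h its mean was 6.22 and in the controls its range was 8.02 to 8.26, so the 24 h arrays lay around the control level. Bcas1, expressed in oligodendrocytes as they begin to form myelin, read 8.29, 8.37 and 8.39 at 15 h and 9.01, 9.05 and 8.93 at 24 h. The rise in Bcas1 was 0.65 ± 0.12 (adjusted p = 0.0288), to a level above all 6 controls (8.06 to 8.59). The differences without 24 h replicate 3 were 0.82 ± 0.10 for Gpr17 and 0.65 ± 0.13 for Bcas1. Bcas1 is not on the marker list of the oligodendrocyte lineage, over which Gpr17 was the 1 of 10 tested genes that passed, beside 16 higher (0.163%) and 41 lower (0.417%) of all 9824 genes counted by 1 probe each. The list median was 0.19 against 0.01 over all genes. Members differed in direction: Cldn11, a tight junction protein of myelin, differed by -0.66 ± 0.20 (adjusted p = 0.159), and by -0.999 ± 0.13 without 24 h replicate 3, where it passed (adjusted p = 0.00398), and Ugt8a, an enzyme of myelin lipid synthesis, differed by -0.26 ± 0.14. Olig1, a transcription factor of the lineage, did not pass (0.34 ± 0.10, adjusted p = 0.148). Myelin basic protein, Mbp, differed by 0.08 ± 0.11.

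Several receptors and secreted signals rose. P2ry6, a purinergic receptor for UDP that microglia use in phagocytosis, read 5.72, 5.75 and 5.61 at 15 h and 6.44, 6.48 and 6.72 at 24 h. The rise of 0.85 ± 0.14 (adjusted p = 0.0192) brought P2ry6 from below the controls (5.98 to 6.55) to the upper part of their range or beyond it. Adcyap1, which encodes the neuropeptide PACAP, was already above the controls (7.47 to 7.85) at 15 h, with 9.39, 9.51 and 9.28, and reached 9.99, 10.20 and 9.82 at 24 h. That further rise was 0.61 ± 0.11 (adjusted p = 0.032). Unc5c, a netrin receptor in axon guidance, rose by 0.65 ± 0.12 (adjusted p = 0.0364), by 0.76, 0.87 and 0.32 on beadchips 1 to 3. Ecel1, a membrane endopeptidase known to be induced in injured neurons, rose by 0.73 ± 0.14 (adjusted p = 0.0472) from 6.00, 5.91 and 6.22 to 6.73, 6.95 and 6.63. Prss12, the synaptic protease neurotrypsin, rose by 0.63 ± 0.09 (adjusted p = 0.0153) to 6.33, 6.45 and 6.47, still below its controls (7.21 to 7.59). A second Prss12 probe differed by 0.40 and did not pass (adjusted p = 0.0661). With 24 h replicate 3 left out, the rises were 0.75 for P2ry6, 0.69 for Adcyap1, 0.83 for Unc5c, 0.75 for Ecel1 and 0.65 for Prss12, and all 5 passed. None of the 5 passed when any other kainate array was left out.

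The remaining named rises were of cytoskeletal and other genes. Mylk, the myosin light chain kinase, read 5.56, 5.44 and 5.45 at 15 h and 6.03, 6.05 and 6.05 at 24 h, a rise of 0.56 ± 0.10 (adjusted p = 0.032), while its controls were not detected on any of 6 arrays. A second Mylk probe differed by 0.34 and did not pass. Lims2, a focal adhesion adaptor, rose by 0.73 ± 0.13 from 7.34, 7.33 and 7.13 to 8.02, 7.90 and 8.06, and its second probe differed by 0.56 (adjusted p = 0.176). Tsen54, a subunit of the tRNA splicing endonuclease, rose by 0.73 ± 0.13, Hsd3b2, a steroid dehydrogenase, by 0.67 ± 0.13 and Tmem100, a membrane protein, by 0.58 ± 0.12. Myom2, a protein of the muscle sarcomere, and Stk31, a kinase, were not detected on any 15 h array, so their folds are bounds, at least 1.78-fold and at least 1.38-fold higher. Myom2 read 5.19, 5.36 and 6.10 at 24 h against 5.50 to 5.92 in the controls, and 24 h replicate 3 was the highest of the 24 h arrays. Without that array the differences were 0.51 for Mylk, 0.64 for Lims2, 0.80 for Tsen54, 0.55 for Hsd3b2, 0.65 for Tmem100, 0.82 for Myom2 and 0.49 for Stk31, and all 7 passed. Of these, only Myom2 and Stk31 also passed when some other kainate array was left out. Before normalization, Mylk read 86.5, 65.9 and 86.5 at 15 h and 81.3, 84.5 and 82.4 at 24 h. On beadchip 3 the signals before normalization of Unc5c, Ecel1, Bcas1, Adcyap1, Prss12, Tmem100 and Tsen54 were also lower at 24 h. Those of the other named rises were higher there.

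**Figure D3:**
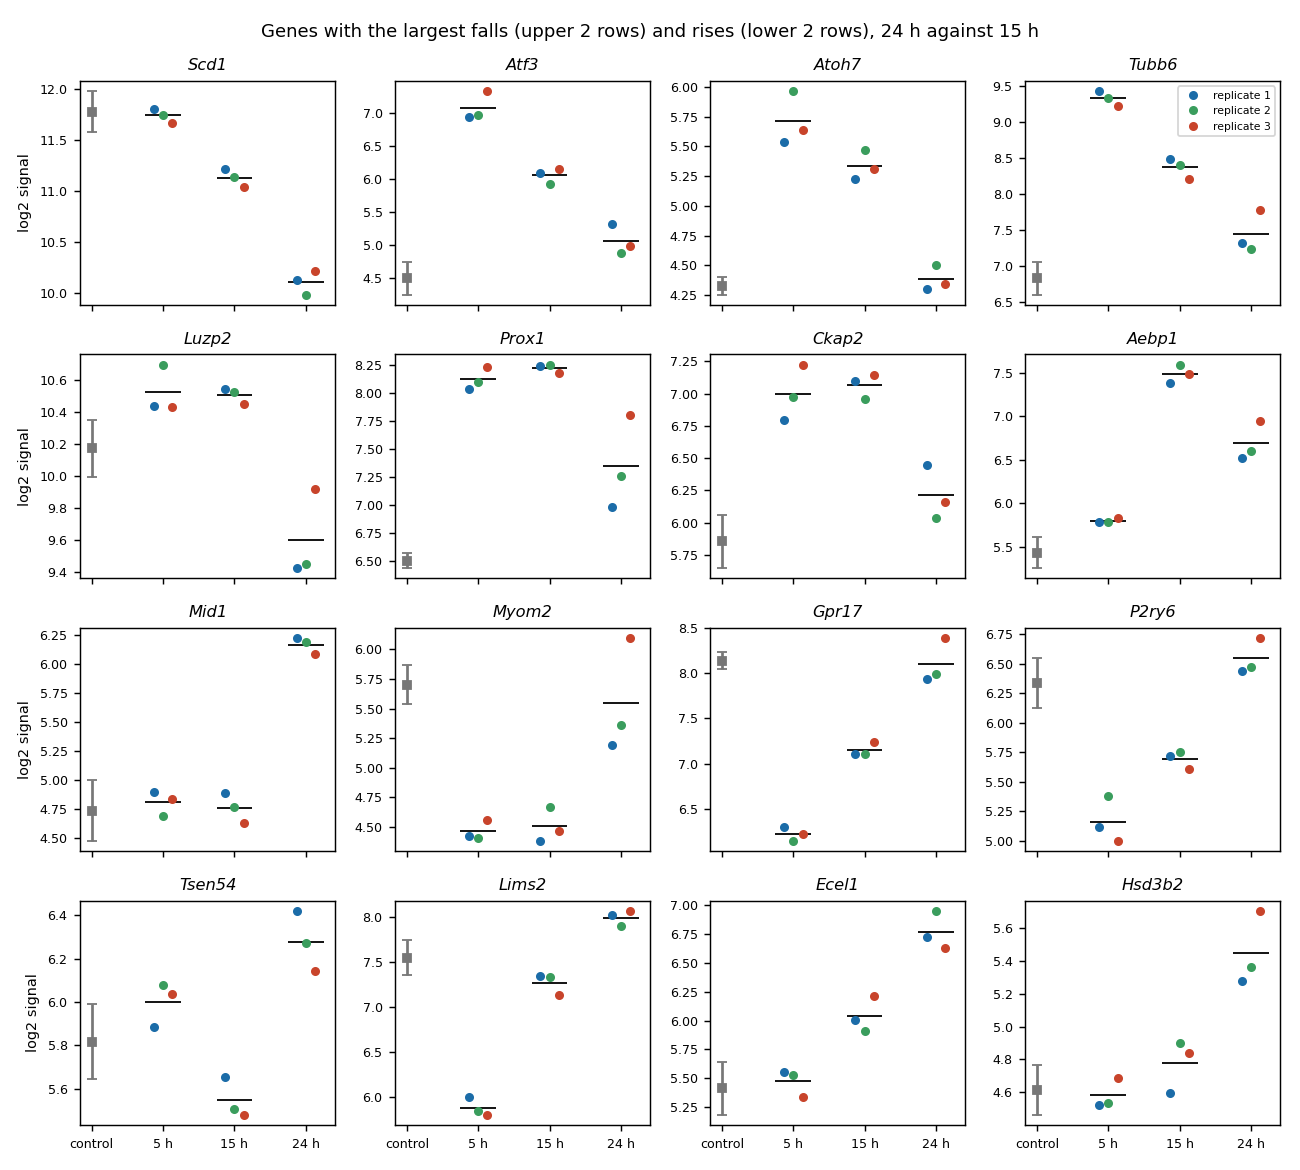
Log2 signal of the 8 genes with the largest falls (upper 2 rows) and the 8 with the largest rises (lower 2 rows) from 15 h to 24 h, with the control mean and SD (grey, n = 6), each kainate array as a point coloured by replicate and the mean of each kainate group as a bar. In all 16 panels the 24 h arrays lie apart from the 15 h arrays, as they did for 20.3% of all tested probes. The 16 genes were chosen for passing the test with the same sign on each beadchip, which favours this.

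The largest fall was in Scd1, the desaturase that makes monounsaturated fatty acids. Scd1 read 11.21, 11.14 and 11.04 at 15 h and 10.13, 9.98 and 10.21 at 24 h, a fall of 2.03-fold (log2 difference -1.02 ± 0.13, adjusted p = 0.00606). All 15 h arrays were below the controls (11.48 to 11.98), and the 24 h arrays were lower still. Hadh, which carries out a step of mitochondrial fatty acid oxidation, read 6.38, 6.27 and 5.82 at 15 h and 5.26, 5.58 and 5.41 at 24 h (-0.74 ± 0.15, adjusted p = 0.0446). In contrast to Scd1, Hadh had been above its controls (4.58 to 5.36) at 15 h. Car2, the cytosolic carbonic anhydrase, fell by 0.77 ± 0.11 on the log2 scale, from 7.21, 7.04 and 7.07 to 6.18, 6.30 and 6.52 (adjusted p = 0.0104), below its controls (6.94 to 7.17). Leaving out 24 h replicate 3 gave differences of -1.08 for Scd1, -0.88 for Hadh and -0.87 for Car2, and all 3 passed. Hadh did not pass when any other kainate array was left out.

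Atf3, Nfe2l2, Tnfrsf12a and Dbp, all above their controls at 15 h, fell. Atf3, a stress-induced transcription factor of the ATF/CREB family, had a 5 h mean of 7.08. It read 6.08, 5.92 and 6.16 at 15 h and 5.32, 4.89 and 4.99 at 24 h, where replicates 2 and 3 were close to the highest control (4.98). The fall was -0.99 ± 0.18 (adjusted p = 0.0268). Nfe2l2, which encodes NRF2, the activator of antioxidant genes, read 5.96, 5.80 and 5.90 at 15 h and 5.22, 5.32 and 5.07 at 24 h (-0.68 ± 0.13, adjusted p = 0.0319). Its 6 controls were not detected on any array, so both kainate times lay above them. Tnfrsf12a, the receptor for the cytokine TWEAK, fell by 0.54 ± 0.09 (adjusted p = 0.0237), from 8.50, 8.60 and 8.61 to 7.94, 7.96 and 8.19, with controls at 7.14 to 7.57. Dbp, a clock-controlled transcription factor, read 10.59, 10.56 and 10.55 at 15 h, above its controls (8.64 to 9.23), and 9.81, 9.85 and 9.95 at 24 h (-0.69 ± 0.13, adjusted p = 0.0389). Without 24 h replicate 3 the differences were -0.93 for Atf3, -0.59 for Nfe2l2, -0.58 for Tnfrsf12a and -0.69 for Dbp, and all 4 passed. Nfe2l2, Tnfrsf12a and Dbp did not pass when any other kainate array was left out. On their lists these were single calls, with 1 fall among 27 tested genes of ATF4 and the integrated stress response. There was 1 among 26 NRF2, glutathione and antioxidant genes and 1 among 21 inflammatory and NF-kB genes. Of all genes, 0.417% fell.

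Promoters of 3 of these genes are shown because factors of the stress response are known to bind the marked motifs, and because Atf3, Nfe2l2 and Mid1 are described above. Each runs 5′ to 3′ on the gene's strand, from 250 bases before the annotated start to 50 after it, from RefSeq on GRCm38.p6. Capitals mark a match to TGATGNAA, the core of the element that ATF4 and CHOP bind (CARE), in Atf3, and to TGACNNNGC, the core of the antioxidant response element, in Nfe2l2 and Mid1. Both strands were searched.
Atf3, chr1:191183284-191183583, minus strand: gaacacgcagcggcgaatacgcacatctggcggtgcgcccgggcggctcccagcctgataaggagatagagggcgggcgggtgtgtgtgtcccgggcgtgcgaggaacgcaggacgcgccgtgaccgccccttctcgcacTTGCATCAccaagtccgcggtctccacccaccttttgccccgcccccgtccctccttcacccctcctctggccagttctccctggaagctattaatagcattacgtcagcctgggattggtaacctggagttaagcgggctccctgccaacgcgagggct
Nfe2l2, chr2:75704614-75704913, minus strand: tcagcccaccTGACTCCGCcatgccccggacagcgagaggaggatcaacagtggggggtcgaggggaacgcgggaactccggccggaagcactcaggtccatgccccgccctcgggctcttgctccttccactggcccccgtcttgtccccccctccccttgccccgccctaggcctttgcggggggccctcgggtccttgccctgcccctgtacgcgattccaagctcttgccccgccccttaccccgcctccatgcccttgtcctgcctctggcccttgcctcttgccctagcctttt
Mid1, chrX:169684949-169685248, plus strand: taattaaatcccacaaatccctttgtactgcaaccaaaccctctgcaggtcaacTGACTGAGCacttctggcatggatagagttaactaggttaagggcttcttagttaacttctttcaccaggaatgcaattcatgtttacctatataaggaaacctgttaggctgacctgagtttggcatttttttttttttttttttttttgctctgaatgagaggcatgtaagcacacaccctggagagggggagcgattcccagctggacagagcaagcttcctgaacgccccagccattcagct
The 15 named falls include 12 genes with a promoter in the table, of which 1, Atf3, holds the CARE core, and the 15 rises include 9, of which 1, Stk31, holds it. The core occurs in 3.97% of all 32851 promoters of this length. The antioxidant core was found in 2 of the 12 falls (Aebp1 and Atoh7) and 1 of the 9 rises (Mid1), against 12.4% of all promoters. Nfe2l2, shown above, was named from its list and is not one of the 15 falls, so it is outside these counts. The other 2 annotated Mid1 starts hold no match. A gene was counted if any of its annotated starts matched, whereas each share is over single promoters, so counts and shares differ in unit. An AP-1 motif, TGANTCA, which can share bases with the antioxidant core, was found in Mylk alone of these 21 genes, against 7.81% of all promoters. A match is a run of letters in this window and no evidence of binding.

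Atoh7, Prox1, Tubb6 and Ckap2 also fell. Atoh7, a proneural transcription factor best known from retinal ganglion cells, read 5.22, 5.47 and 5.31 at 15 h and 4.30, 4.50 and 4.34 at 24 h. It was detected on 3 of 3 arrays at 15 h and on none at 24 h or in the controls, so it was at least 1.54-fold lower at 24 h (adjusted p = 0.00142). Prox1, a homeobox factor of neural and lymphatic development, read 8.24, 8.26 and 8.18 at 15 h and 6.98, 7.26 and 7.80 at 24 h (-0.88 ± 0.14, adjusted p = 0.0192), with controls at 6.42 to 6.60. Its difference was -1.26 and -0.996 on beadchips 1 and 2 and -0.37 on beadchip 3. Tubb6, a beta-tubulin, showed the same order of beadchips, with differences of -1.16, -1.16 and -0.44, and fell overall by 0.92 ± 0.16 on the log2 scale (adjusted p = 0.0239). Ckap2, a protein of the mitotic spindle, fell by 0.85 ± 0.16, from 7.10, 6.96 and 7.14 to 6.45, 6.04 and 6.16 (adjusted p = 0.032). All 4 genes were above their controls at 15 h. Without 24 h replicate 3 the differences were -0.93 for Atoh7, -1.09 for Prox1, -1.18 for Tubb6 and -0.81 for Ckap2, and all 4 passed. Only Atoh7 of these 4 also passed when other kainate arrays were left out.

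The extracellular matrix genes Aebp1 and Col5a1 also fell. Aebp1, which encodes a collagen-binding secreted protein, read 7.38, 7.59 and 7.49 at 15 h and 6.51, 6.60 and 6.94 at 24 h (-0.80 ± 0.14, adjusted p = 0.0257), and remained above its controls (5.28 to 5.72). Col5a1, a fibrillar collagen chain, fell by 0.79 ± 0.13 (adjusted p = 0.0237), from 7.64, 7.70 and 7.52 to 6.57, 6.83 and 7.10. Luzp2, a leucine zipper protein, fell by 0.91 ± 0.15 (adjusted p = 0.0235), with differences of -1.12, -1.07 and -0.53 on beadchips 1 to 3. Pus10, a pseudouridine synthase, fell by 0.74 ± 0.13, and Lrrc8c, a subunit of volume-regulated anion channels, fell by 0.69 ± 0.10 from 5.59, 5.73 and 5.61 to 4.82, 5.05 and 4.98. When 24 h replicate 3 was left out, the differences were -0.96 for Aebp1, -0.93 for Col5a1, -1.11 for Luzp2, -0.74 for Pus10 and -0.73 for Lrrc8c, and all 5 passed. None of these 5 passed when any other kainate array was left out.

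Neuronal and growth factor genes that fell included Npy, neuropeptide Y of cortical interneurons. Npy was at 9.70 to 10.11 in the controls and had a mean of 9.68 at 5 h, then read 7.11, 7.06 and 6.98 at 15 h and 6.62, 6.28 and 6.25 at 24 h. Its later fall was -0.67 ± 0.11 (adjusted p = 0.0237), the same way on each beadchip. Rab3b, a GTPase of synaptic vesicles, continued down as well, from controls of 8.62 to 8.80 to 7.62, 7.42 and 7.49 at 15 h and 6.56, 6.82 and 6.79 at 24 h (-0.79 ± 0.10, adjusted p = 0.00606). Tgfb2, a growth factor, fell by 0.50 ± 0.10 (adjusted p = 0.0489) from 9.19, 9.19 and 8.99 to 8.67, 8.64 and 8.56. Igfbp4, an insulin-like growth factor binding protein, fell by 0.53 ± 0.10 at one probe (adjusted p = 0.0442) and differed by -0.05 at its other. Dlgap2, a postsynaptic scaffold protein, fell by 0.67 ± 0.12 at one probe (adjusted p = 0.0288) and differed by -0.16 at its other, so neither gene is settled by these probes. In the fit lacking 24 h replicate 3 the differences were -0.63 for Npy, -0.82 for Rab3b, -0.54 for Tgfb2, -0.64 for Igfbp4 and -0.66 for Dlgap2, and all 5 passed. Npy, Tgfb2 and Igfbp4 did not pass when any other kainate array was left out.

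Activity-regulated genes, which kainate induces through calcium entry, mostly did not pass between 15 h and 24 h. Of 39 tested genes of the list, 1 (Atf3) fell and 38 were not called, beside the 0.417% of all genes that fell. The list median was -0.06. Fos, a subunit of AP-1, read 12.38, 12.26 and 12.38 at 15 h and 12.001, 12.06 and 12.12 at 24 h, against 6.36 to 7.42 in the controls. The 24 h arrays were all below the 15 h arrays, yet the difference of -0.28 ± 0.20 did not pass (adjusted p = 0.566). That error pools the spread of all groups. The SD was 0.45 in the controls, 0.07 at 15 h and 0.06 at 24 h for Fos. For Fosb it was 0.43, 0.08 and 0.13. Fosb, a relative of Fos, read 9.39, 9.22 and 9.29 at 15 h and 8.98, 8.76 and 8.75 at 24 h, after a 5 h mean of 11.95 (-0.47 ± 0.21, adjusted p = 0.314). Npas4, a neuronal activity-dependent factor, read 10.16, 9.95 and 10.11 and then 10.20, 10.05 and 9.86, and the groups overlapped. Arc, a synaptic plasticity gene, differed by 0.07 ± 0.14, and Egr1, a zinc finger factor, by 0.01 ± 0.18, both with overlapping groups. At 24 h, Fos was 5.10, Fosb 4.24, Npas4 4.70, Arc 2.07 and Egr1 1.52 log2 units above the controls, in a comparison that shares the 24 h arrays.

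Other stress genes did not pass. Ddit3, which encodes the ER stress factor CHOP, read 8.36, 8.44 and 8.51 at 15 h and 8.70, 8.77 and 9.01 at 24 h. The difference was 0.39 ± 0.24 (adjusted p = 0.493) with no overlap of the 3 arrays. The SD of Ddit3 was 0.47 in the controls, 0.08 at 15 h and 0.16 at 24 h. Hmox1, heme oxygenase and a target of NRF2, read 9.84, 9.87 and 9.83 at 15 h and 10.17, 10.17 and 9.66 at 24 h (0.15 ± 0.23, adjusted p = 0.828). Its first 2 beadchips moved up and the third down. Hspa1b, a heat shock protein, had no tested probe.

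**Figure D4:**
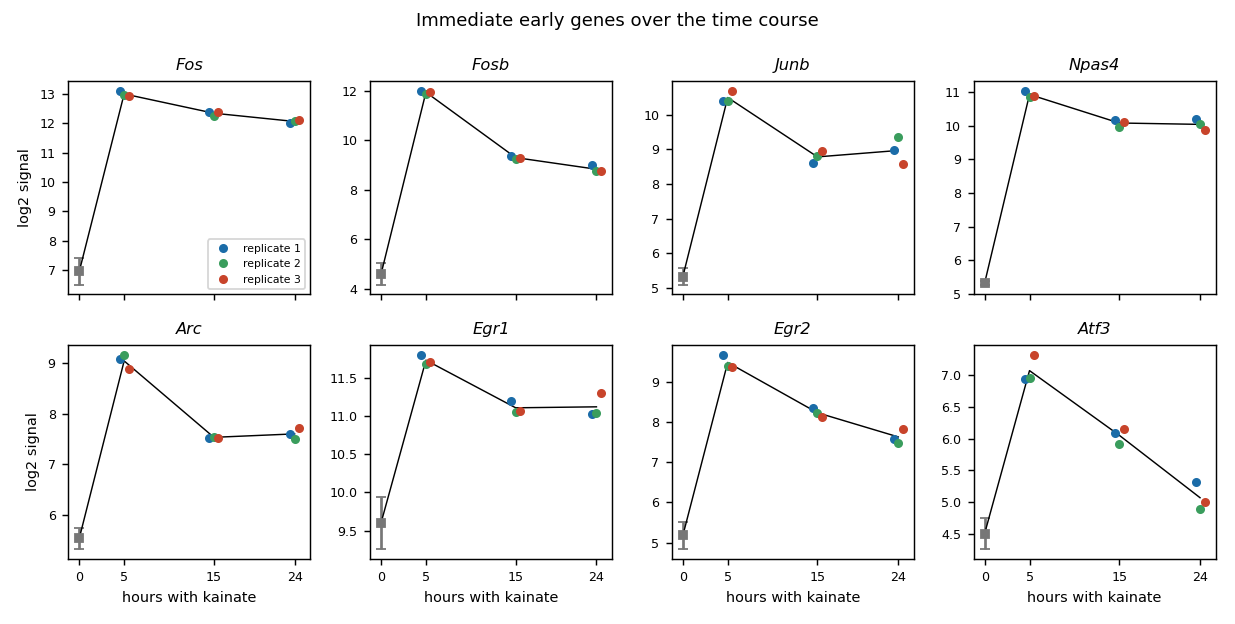
Log2 signal of 8 activity-regulated genes against hours with kainate, with the control mean and SD at 0 h (grey, n = 6), each kainate array as a point and lines through the group means. Atf3 fell between 15 h and 24 h (-0.99), while Fos (-0.28), Fosb (-0.47), Npas4 (-0.04), Arc (0.07), Egr1 (0.01), Junb (0.19) and Egr2 (-0.60) did not pass. Of these, Junb and Egr2 passed in the fit without 24 h replicate 3.

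Without 24 h replicate 3, 471 of 9824 genes were higher (4.79%) and 596 lower (6.07%), and 645 (4.56%) and 731 (5.16%) of 14154 probes. Of the 39 activity-regulated genes 2 were higher, 3 lower and 34 not called in that fit. Egr2 (-0.78 ± 0.17, adjusted p = 0.0203) and Nr4a2 (-0.42 ± 0.11, adjusted p = 0.0354) fell beside Atf3, while Junb (0.47 ± 0.13, adjusted p = 0.0441) and Jund (0.66 ± 0.13, adjusted p = 0.0142), both Jun-type subunits of AP-1, rose. Jund read 8.20 and 8.19 in 24 h replicates 1 and 2 and 6.81 in replicate 3, against 7.57, 7.62 and 7.59 at 15 h. Replicate 3 therefore lay below the 15 h arrays and the other two above them.

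In the fit without that array, the median of the fatty acid and lipid fuel list was -0.23 against 0.00 over all genes. Of its 19 tested genes 4 fell, beside the 6.07% of all genes that fell. They were Scd1, Pdk4, the kinase that limits pyruvate oxidation (-0.53), and Acadvl and Acadm, dehydrogenases of fatty acid oxidation (-0.44 and -0.40). A second Acadm probe also passed, at -0.57. Acadvl differed by -0.40 and -0.39 on beadchips 1 and 2 and by -0.02 on beadchip 3. The glucose transporters Slc2a1 (-1.11 ± 0.12) and Slc2a3 (-0.33 ± 0.09) fell too, and Pfkp, a phosphofructokinase, rose by 0.49 ± 0.14, with a second probe at 0.35 that did not pass. Aldoc, an aldolase typical of astrocytes, had the largest fall among the genes named from this fit at one probe (-1.21 ± 0.11, adjusted p = 0.000459) but differed by -0.23 at a brighter probe (adjusted p = 0.119).

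Astrocyte and progenitor markers were among these falls, in a fit where 6.07% of all genes fell. Of 14 tested astrocyte markers, 3 fell without 24 h replicate 3: Gja1, the gap junction protein connexin 43, Slc1a3, a glutamate transporter, and Sox9, a glial transcription factor. Gja1 read 13.29, 13.37 and 13.20 at 15 h, 12.76 and 12.77 in 24 h replicates 1 and 2, and 13.27 in replicate 3. Slc1a3 followed the same pattern, with 13.16, 13.06 and 13.44 at 24 h against 13.50, 13.44 and 13.29. Gfap, the intermediate filament of reactive astrocytes, differed by 0.03 ± 0.11 in this fit. Of 14 progenitor markers, Prom1 (-0.51), Notch1 (-0.48), Hes1 (-0.41) and Slc1a3 (-0.32) fell. The astrocyte list median was -0.18, -0.23 and -0.32 on beadchips 1 to 3, so it was below 0 on each, and the summed astrocyte signal was 39199.0, 38369.9 and 43154.1 on the 24 h arrays against 45442.3 to 46905.6 at 15 h.

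Of the lists, the antioxidant and inflammatory genes held the most falls without that array, where 6.07% of all genes fell. Of 26 tested NRF2, glutathione and antioxidant genes, 8 fell, with a list median of -0.17, among them Nfe2l2, the cystine transporter Slc7a11 and the reductases Blvrb (-0.75) and Nqo1 (-0.49). Slc7a11 was not detected on any 24 h array and was at least 1.53-fold lower with all arrays, where it did not pass (adjusted p = 0.0791). Of 21 inflammatory and NF-kB genes, 7 fell, with a median of -0.19, including Tnfrsf12a, the NF-kB subunit Rela (-0.63 ± 0.09), the cytokine signalling inhibitor Socs3 (-0.56 ± 0.15) and the adhesion molecule Vcam1 (-0.56 ± 0.15). Rela read 10.08, 10.04 and 10.08 at 15 h and 9.44, 9.47 and 9.94 at 24 h. Over all 3 beadchips, 1 gene of each of these lists fell, Nfe2l2 and Tnfrsf12a.

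Of 29 tested presynaptic genes, 3 rose and none fell without 24 h replicate 3, beside the 4.79% of all genes that rose. They were the vesicle proteins Rph3a (0.75 ± 0.15), Syn1 (0.61 ± 0.14) and Syt5 (0.53 ± 0.11). Syn1 read 11.09, 11.28 and 11.33 at 15 h and 11.75, 11.80 and 11.21 at 24 h, with controls at 11.48 to 12.03, and its second probe differed by 0.08. Of 15 tested ionotropic glutamate receptor genes, 3 rose and 1 fell: the subunits Grin2c (0.67) and Grik5 (0.66) and the AMPA receptor auxiliary protein Cacng4 (0.64) rose, and the AMPA subunit Gria3 (-0.85) fell, with other Gria3 probes at -0.14 and -0.49 that did not pass. Grik5, a kainate receptor subunit, read 8.11, 7.84 and 8.09 at 15 h and 8.65, 8.51 and 7.81 at 24 h. Of 23 postsynaptic scaffold genes, Nlgn2 and Dlgap4 rose and Dlgap2 and Cnksr2 fell. Second probes did not pass for Dlgap4 (0.41), Dlgap2 (-0.15) or Cnksr2 (0.28, the opposite sign). Nlgn2, an adhesion protein of inhibitory synapses, rose by 0.59 ± 0.12 and the cortical neuron factor Neurod2 by 0.56 ± 0.10, but both were lower on beadchip 3 (-0.30 and -0.44). Gad1, which makes GABA, fell by 0.62 ± 0.13 from 10.47, 10.31 and 10.43 to 10.01 and 9.71 in replicates 1 and 2, with 10.30 in replicate 3. A second, dimmer Gad1 probe differed by 0.07 in this fit (adjusted p = 0.791), so the fall rests on 1 probe.

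Of 34 tested cytoskeleton and axon growth genes, 3 rose and 1 fell in the same fit, where 10.9% of all genes passed. Stmn1, a microtubule-destabilising protein of growing axons, rose by 0.83 ± 0.21 and was higher on all 3 beadchips (0.81, 1.11 and 0.45). Tubb4a rose by 0.53 ± 0.12 and Nrcam by 0.44 ± 0.11, while Tuba1a, an alpha-tubulin, fell by 0.72 ± 0.14. Of 32 channel genes, 3 fell and 29 were not called, beside the 6.07% of all genes that fell. They were the potassium channel genes Kcnip4, Kcnab2 and Kcnk2, which fell by 0.81, 0.62 and 0.54, while second probes of Kcnip4 and Kcnk2 differed by -0.34 and -0.18 and did not pass. Kcnk2 read 10.83, 10.78 and 10.71 at 15 h and 10.28, 10.28 and 10.91 at 24 h, so replicate 3 again lay on the other side of the 15 h arrays.

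Of 27 tested Bcl2 family, caspase and apoptosome genes, 1 rose and 3 fell without 24 h replicate 3, where 10.9% of all genes passed. The falls were in the BH3-only gene Hrk (-0.58 ± 0.12), the initiator caspase Casp9 (-0.54 ± 0.12) and the mitophagy receptor Bnip3l (-0.42 ± 0.11). Bcl2l2, a survival member, rose by 0.59 ± 0.10 at one probe and differed by -0.21 at another. Hrk was lower on each beadchip, with differences of -0.80, -0.33 and -0.36, whereas Casp9 differed by -0.04 on beadchip 3. Of 18 p53 targets, Aen and Phlda3 rose by 0.53 and 0.49 and Ccng1 fell by 0.47. A second Aen probe differed by 0.22 and did not pass, and a second Ccng1 probe passed at -0.74. Of 29 lysosome and autophagy genes, 4 fell and 2 rose, with falls in Map1lc3b (-0.64), Gabarapl2 (-0.60), Npc2 (-0.44) and Lamp2 (-0.43) and rises in Atg7 (0.56) and Mcoln1 (0.50), and second probes at -0.27 for Gabarapl2, which did not pass, and -0.56 for Lamp2, which did. Of 17 calpain and cathepsin genes 2 fell, among them Ctsb, by 0.57 ± 0.10, with a second probe at -0.20 that did not pass.

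Of 8 tested microglia and macrophage markers, 2 fell and 6 were not called without 24 h replicate 3, beside the 6.07% of all genes that fell. The 2 that fell, Laptm5 and Lgals3, differed in direction between the beadchips. Laptm5, a lysosomal protein of leukocytes and microglia, read 8.85, 8.91 and 8.84 at 15 h and 8.19, 8.26 and 9.27 at 24 h. Lgals3, galectin 3 of activated phagocytes, read 8.33, 8.50 and 8.38 and then 8.06, 7.98 and 8.86. Both fell without 24 h replicate 3 (-0.63 ± 0.10 and -0.41 ± 0.10) and both were higher on beadchip 3, by 0.44 and 0.48. The list median over 8 tested markers was -0.22, 0.09 and 0.31 on beadchips 1 to 3. Of the markers detected on all 6 arrays, Laptm5 and Lgals3 had lower means at 24 h than at 15 h. Aif1, C1qa, C1qb and C1qc had higher ones.

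List medians of basic cell machinery were mostly near 0. The list median over all arrays was 0.04 for 33 cytosolic ribosomal proteins, 0.04 for 35 proteasome genes, 0.03 for 44 oxidative phosphorylation genes and 0.04 for 20 ER chaperone and unfolded protein response genes. The 13 aminoacyl-tRNA synthetases, which charge tRNAs, had a median of 0.18, with 0.14, 0.20 and 0.22 on the 3 beadchips, and the 20 cholesterol synthesis genes one of -0.12.

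**Figure D5:**
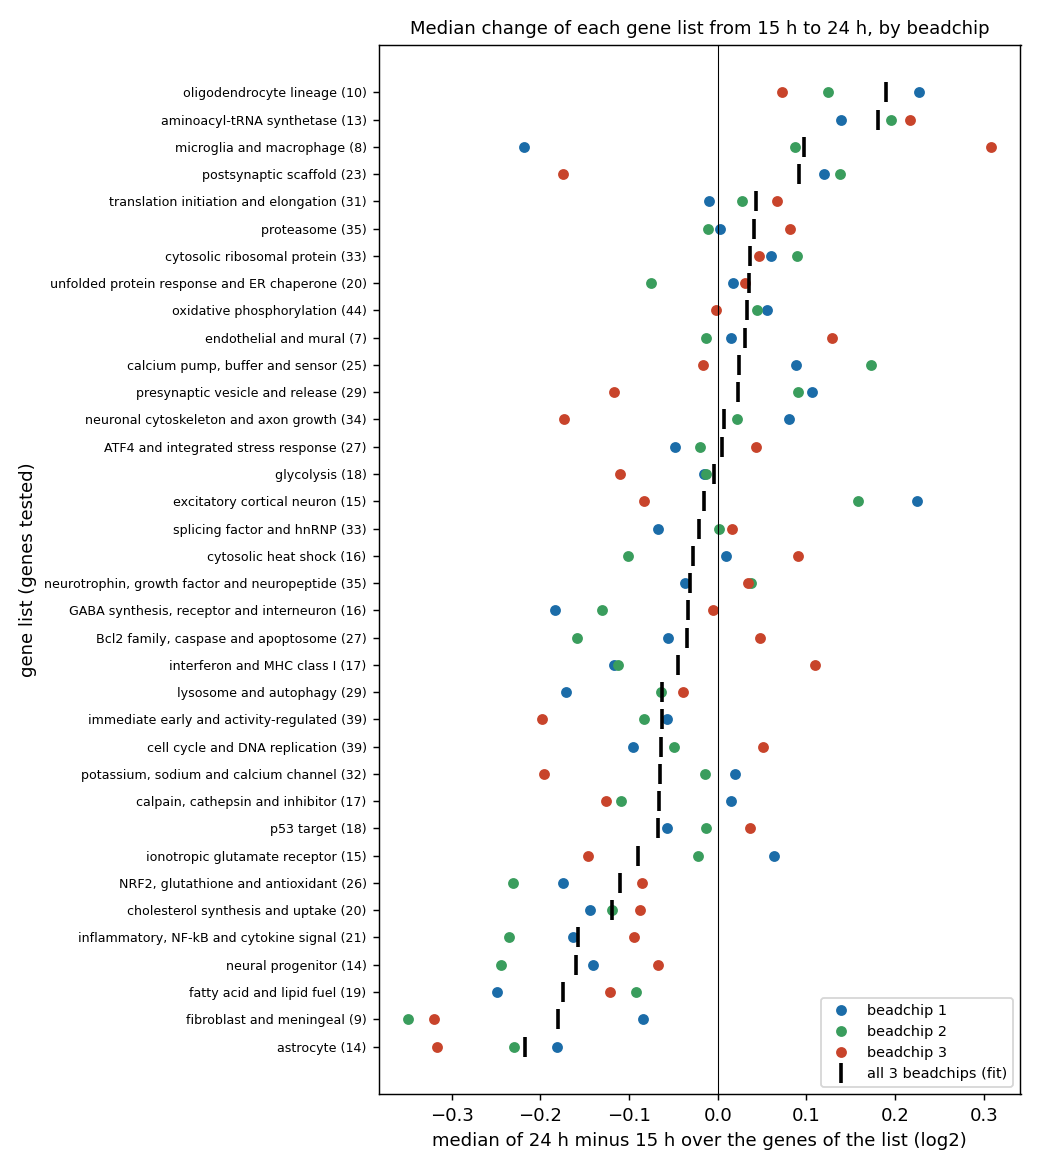
Median change from 15 h to 24 h (log2) over the tested genes of each list, on each beadchip (points) and from the fit to all arrays (black bars), with the number of genes in brackets. Astrocyte medians lie below 0 on every beadchip (-0.18, -0.23 and -0.32), while the microglia and macrophage medians run from -0.22 to 0.31 and the postsynaptic and presynaptic medians are above 0 on beadchips 1 and 2 and below 0 on beadchip 3.

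A last check used beadchip 3 as arrays that a fit had not seen. The fit without any array of beadchip 3 called 124 probes (0.876%), 57 higher (0.403%) and 67 lower (0.473%) at 24 h, 116 of them (0.82%) at 1.5-fold or more. On beadchip 3, 23 of the 57 were higher at 24 h, with a median difference of -0.07, and 43 of the 67 were lower, with a median of -0.14. Over all 14154 probes, 7147 were higher on beadchip 3. The change seen on beadchips 1 and 2 was past 1.5-fold the same way on beadchip 3 for 4 of the 57 higher and 5 of the 67 lower probes. Over all 14154 probes, 358 were higher and 536 lower by 1.5-fold or more on beadchip 3.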

How the data were processed

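Signals are bead intensity means that the authors exported from BeadStudio 3.2.3 without normalization, per the file headers. Detection was deposited as a fraction that equals 1 for the brightest targets (the complement of a p-value), and the deposited bead counts had a median of 34 or 35 per target. The authors' normalized values are a deposited ratio to the array median and then to the control median, a rule read from the values. Columns of 9 arrays outside the labelled samples (72 columns) were left unused. Limma 3.58.1 in R 4.3.3 ran neqc (offset 16, quantile) on 24606 targets. One target with signals of 4486.5 or more and conflicting detection scores was left out, a repair made with the data known.

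Probes detected (p below 0.05) on at least 3 of 15 arrays were fitted with lmFit and eBayes as 4 group means with beadchip as a fixed block (13.69 degrees of freedom, prior included). The pairing comes from the beadchip in the labels. The correlations of deviations from the group means within a beadchip were 0.025, 0.029 and -0.114. Errors are model standard errors. Where no array of the dimmer group detected a probe, the fold is a bound, against the lowest signal among detected probes on each array. The steps were tested on simulated data.

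Symbols came from the platform annotation, updated to GRCm38.p6, with 1 symbol for 20854 of 24607 targets. The accessions and descriptions deposited beside the signals were not used: 24 of 20580 comparable accessions equalled the annotation's, whereas the Gene ID within the target name equalled it for 7576 of 7716. Each list counts 1 probe a gene, the brightest, and has no test of its own. Named genes were the 15 largest rises and falls among called probes with the same sign on each beadchip, detected on all 3 arrays of the higher group, up to 4 called members per list and direction, and 11 fixed genes. The same rule was applied to the fit without 24 h replicate 3, with the sign on beadchips 1 and 2. Markers that describe cell types and single contrasts outside this rule (Olig1, Mbp, Gfap) were chosen after their values were seen. The members and lists were chosen with earlier results of these data known. The precision is limited by the number of arrays.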

Additional observations from a re-analysis of the deposited data

Results flagged for a closer look

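For 4 of the named genes Dixon's test flagged 1 control value as far from the other 5 controls. The test flags about 1 in 20 groups by chance, so flags such as these can arise by chance. Bcas1 was lowest in control replicate 5, at 8.06 against a control median of 8.48. Atf3 was highest in control replicate 3, at 4.98 against a median of 4.44, and Lrrc8c in the same replicate, at 5.59 against 5.29. Npas4 was highest in control replicate 4, at 5.43 against 5.31.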

How the results depend on the processing

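The counts of called probes, of probes called at 1.5-fold or more, and of called list members were 65, 43 and 10. They were 91, 52 and 10 with no replicate block, and 94, 54 and 11 with beadchip as a random block, so the pairing by beadchip moved no count by over 1.5 times. Leaving out 1 kainate array gave 2 to 1376, 2 to 397 and 0 to 105, the highest without 24 h replicate 3. No call was made on the 6 arrays alone, with or without 24 h replicate 3, nor with quantile normalization of the 6 arrays alone (0, 0 and 0, with 1766, 3967 and 1776 probes at an unadjusted p below 0.05). The 9 kainate arrays gave 3, 3 and 1, leaving out control replicates 1 and 3 gave 271, 92 and 36, leaving out beadchip 3 gave 124, 116 and 13, and array weights, with 0.15 for 24 h replicate 3, gave 2686, 354 and 184. Centring the median of all targets gave 283, 237 and 38, with 9 probes higher and 274 lower and a median shift of -0.17 over the tested probes, and the authors' ratios gave 491, 104 and 61, with 7 higher and 484 lower and a shift of -0.10. Centring the tested probes gave 55 (29 higher, 26 lower), 39 and 5, no background correction 126, 24 and 18, an offset of 50 170, 21 and 20, no filter on dim probes 134, 46 and 16, and the detection scores as deposited 217, 26 and 29. The cause of these moves was not tested.

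All 36 named called genes kept their sign in every fit, which their choice by the same sign on each beadchip favours. Between 0 and 36 stayed past the threshold. Among the genes that were not called, Egr1, Arc, Hmox1, Junb and Npas4 changed sign. With all targets centred, Egr1 was -0.257, Arc -0.145, Hmox1 -0.141 and Junb -0.071, and with the authors' ratios they were -0.201, -0.084, -0.085 and -0.018. Egr1 was -0.036 with the tested probes centred and -0.054 with array weights, where Arc was -0.009 and Npas4 0.025. Without beadchip 3, or on the 6 arrays without 24 h replicate 3, Egr1 was -0.094 and Npas4 0.069. Leaving out 1 kainate array moved Egr1 between -0.067 and 0.087, Npas4 between -0.111 and 0.042 and Junb between -0.0079 and 0.469. Alternatives chosen after seeing the data were the centring of the tested probes, the deposited scores, the 6 arrays without 24 h replicate 3 and the normalization of 6 arrays. Dim probes such as Atoh7, Myom2 and Stk31 have only bounds.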

Other observations

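Other genes named from the fit without 24 h replicate 3 were neuronal, nuclear and barrier genes. Adgrl1, a presynaptic adhesion receptor, read 9.59, 9.53 and 9.74 at 15 h and 10.53, 10.55 and 9.43 at 24 h. Scaf1, a splicing-related factor, read 9.08, 9.09 and 9.11 and then 9.96, 10.05 and 8.50, and Ap2a1, a subunit of the endocytic clathrin adaptor, read 7.75, 7.63 and 7.85 and then 8.50, 8.52 and 7.14. In these genes 24 h replicates 1 and 2 were above the 15 h arrays and replicate 3 below them. Arid1a, a chromatin remodelling subunit, read 8.01, 7.86 and 7.06 at 24 h against 7.19, 7.14 and 6.97. Olig2, a transcription factor of the oligodendrocyte lineage, rose by 0.85 ± 0.11 without that array (adjusted p = 0.00298) and differed by -0.32 on beadchip 3.

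Among the falls of that fit, Retsat, a retinol saturase, read 8.75, 8.73 and 8.57 at 15 h and 7.58, 7.67 and 9.15 at 24 h, though a second Retsat probe differed by -0.20 and did not pass (adjusted p = 0.555). Cldn11, a tight junction protein of myelin, read 8.06, 8.21 and 8.16 and then 7.27, 7.10 and 8.10. Ttr, the thyroid hormone carrier transthyretin, read 10.98, 10.89 and 10.30 and then 9.72, 9.71 and 10.33. The trophic receptor gene Ntrk2, which binds BDNF, fell by 0.95 ± 0.21 (adjusted p = 0.0212) and differed by 0.15 on beadchip 3. Jam2, a junctional adhesion molecule, was lower on all 3 beadchips (-0.95, -0.96 and -0.64), and Ikzf4, a zinc finger factor, was higher on all 3 (0.76, 0.99 and 0.58), but neither passed with all arrays (adjusted p = 0.0598 and 0.0522).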
